A study of Mus musculus with 12 samples.

Results

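Untreated knockout kidneys, without the AT1A receptor for angiotensin (KO baseline, 3 arrays), were set against kidneys of wild-type mice given angiotensin II (WT ANG II, 3 arrays). These 6 arrays, of 12 in the series, were taken by their genotype and treatment labels, and they were the groups whose log2 ratios were most widely spread. Genotype and treatment both differed between them, so no difference in this comparison can be assigned to either. KO baseline mice were labelled AGTR1A-KO and NS diet, and WT ANG II mice were labelled wild type and ANG II +NS diet, with an infusion of 1 ug/kg/min over 2 days. Untreated wild-type kidneys (WT baseline, labelled wild type and NS diet, 3 arrays) served as the common reference. The 3 arrays of infused KO kidneys (KO ANG II) entered the fit only through its estimate of spread. All mice were males of 2.5 months from an F1 cross (C57BL6 X 129/SvEv), with 1 array of whole-kidney RNA per mouse. The labels name no tissue to which the deletion is limited, and no vehicle infusion for the baseline groups.

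The peptide angiotensin II, the end product of renin and converting enzyme, raises blood pressure by constricting vessels and by retaining salt. In rodents most of these actions run through the AT1A receptor, a G protein-coupled receptor present in renal vessels and tubules, and mice without it have low blood pressure. Kidney injury is followed in general by re-expression of developmental and cell-stress genes in tubule cells, entry of macrophages, and deposition of matrix by interstitial cells.

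Values were ratios of an array to the median of the 12 arrays for the same probe set, so differences between groups could be read while levels of different genes could not be compared. For the same reason the presence of kidney markers as such could not be checked. Within an array, log2 ratios had an SD of 0.222 to 0.262 in KO baseline arrays, 0.268 to 0.342 in WT ANG II arrays and 0.164 to 0.180 in WT baseline arrays. The mean 3' minus 5' log2 difference of the Actb and Gapdh controls, a sign of RNA quality, was -0.040 to 0.0004 in KO baseline, 0.036 to 0.067 in WT ANG II and -0.018 to -0.0074 in WT baseline arrays, and its part in the results was not tested. Errors below are moderated standard errors from limma with n = 3 arrays per group. A call means an adjusted p below 0.05 (Benjamini-Hochberg) over all 45037 probe sets. Every count of list members called is to be read beside the share of all genes called. For KO baseline minus WT ANG II these shares were 21.1% higher and 25.2% lower. They were 4.52% and 2.04% for KO baseline minus WT baseline. For WT ANG II minus WT baseline they were 9.61% and 14.5%.

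The targeted gene did not separate the groups compared here. Agtr1a, which encodes the receptor, had ratios of 1.04, 0.923 and 0.965 in KO baseline kidneys and 0.957, 1.00 and 0.997 in WT ANG II kidneys, against 1.37, 1.40 and 1.36 in WT baseline kidneys. KO baseline and WT ANG II ratios overlapped (-0.01 ± 0.08 on the log2 scale, adjusted p = 0.895), and both lay below every WT baseline array. No source used here says whether the probe set lies in the deleted sequence, so it does not settle the genotype labels. The chromosome 13 gene Gpx6, a glutathione peroxidase, separated the genotypes in these arrays without overlap, with ratios of 0.208, 0.219 and 0.196 in KO baseline kidneys, 2.41, 2.13 and 2.26 in WT ANG II kidneys and 1.92, 1.79 and 1.60 in WT baseline kidneys. Sugct, also on chromosome 13, gave 0.179, 0.157 and 0.136 in KO baseline kidneys, 2.46, 1.81 and 2.01 in WT ANG II kidneys and 2.59, 2.04 and 2.62 in WT baseline kidneys, although 1 of its 2 probe sets was called the other way. With a variance trend the call between KO baseline and WT ANG II was lost for Sugct (adjusted p = 0.788) and barely kept for Gpx6 (adjusted p = 0.0497), and between KO baseline and WT baseline both were lost (adjusted p = 0.86 and 0.19).

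Across the array, differences between KO baseline and WT ANG II kidneys were many and mostly small. Of 45037 probe sets 19990 were called (44.4%), of which 9021 were higher (20%) and 10969 were lower (24.4%) in KO baseline. Differences under 1.5-fold made up 79.5% of the calls, with 6295 higher and 9597 lower. The balance turned with size: at 2-fold or more, 788 probe sets were higher (1.75%) and 84 were lower (0.187%). Over 4-fold, 79 were higher and 11 lower. When the deposited values were quantile-normalized again, 11471 probe sets were called, of which 6442 or 56.2% were higher, against 45.1% without that step. At 2-fold or more that setting gave 264 higher and 87 lower, so 75.2% of the calls of that size were higher, against 90.4% without it.

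**Figure D1:**
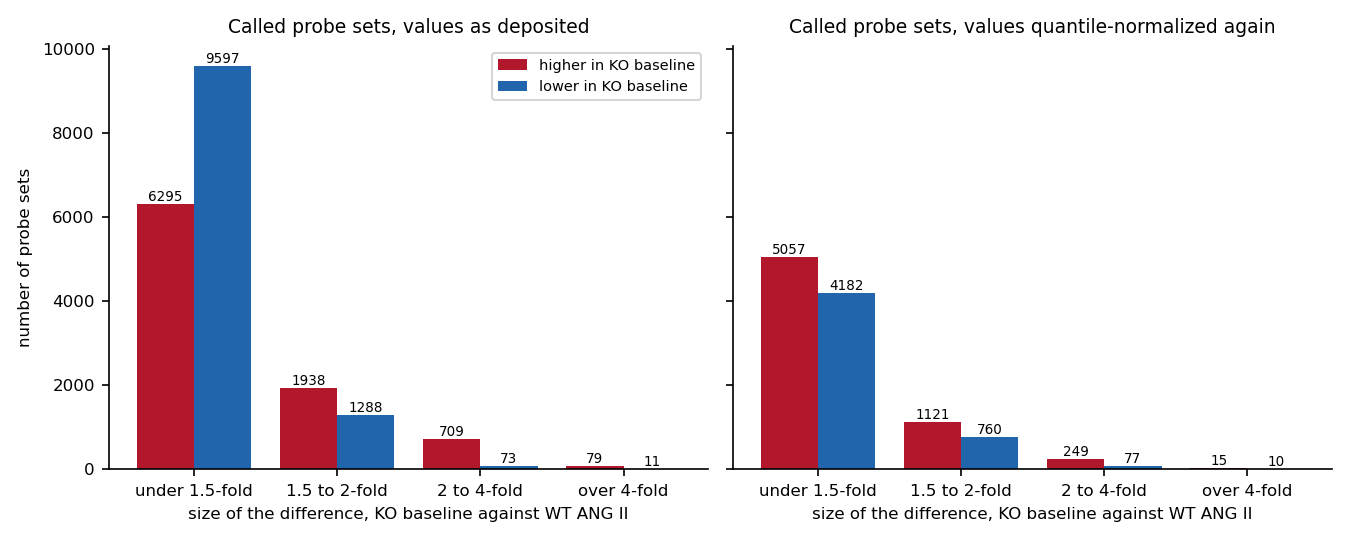
Number of probe sets called between KO baseline and WT ANG II kidneys (vertical axis, linear), by size of the difference (horizontal axis), for the values as deposited (left) and after quantile normalization (right). Red bars are probe sets higher and blue bars those lower in KO baseline; under 1.5-fold the deposited values give 6295 higher and 9597 lower, and from 2 to 4-fold they give 709 and 73.

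Set against WT baseline, the groups differed from it at unlike numbers of probe sets. KO baseline differed from WT baseline at 2936 probe sets (6.52%), and WT ANG II differed from WT baseline at 10876 (24.1%). Counted by genes, with 1 probe set for each of 18193, 97 were higher in both groups than in WT baseline (0.533%), 100 were lower in both (0.55%), and 137 were called in opposite directions (0.753%). The first count was 1107 to 1909 without WT baseline replicate 2 or 3 or KO baseline replicate 1 or 2, while the second dropped to 6921 if WT ANG II replicate 3 was omitted and to 5773 if WT baseline replicate 1 was. These counts share the WT baseline arrays, and the direct comparison shares its arrays with each of them.

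The genes highest in KO baseline kidneys relative to WT ANG II kidneys were led by an esterase and by antibody genes. Jchain, the joining chain of IgA and IgM made by plasma cells, had ratios of 6.69, 3.72 and 5.09 in KO baseline kidneys, 0.240, 0.622 and 0.334 in WT ANG II kidneys and 0.481, 0.481 and 0.354 in WT baseline kidneys. All 3 KO baseline arrays stood apart, while the WT groups overlapped, and the difference between KO baseline and WT ANG II was 13.6-fold (log2 3.77 ± 0.31, adjusted p = 4.78e-06). Igha, the IgA heavy chain constant region, was 11.8-fold higher in KO baseline and Igkv8-30, a kappa light chain variable region, 11.4-fold higher. Immunoglobulin segments resemble each other, so their probe sets may read several of them.

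Ces1g, a carboxylesterase of lipid and drug metabolism, was the highest gene at 15.7-fold (log2 3.97 ± 0.26), but its pattern was different. Its ratios were 2.20, 1.83 and 2.88 in KO baseline kidneys, 0.0921, 0.189 and 0.173 in WT ANG II kidneys and 1.24, 0.975 and 1.65 in WT baseline kidneys. No groups overlapped, and the WT ANG II arrays lay furthest from WT baseline. Relative to WT baseline it measured 0.85 in KO baseline (adjusted p = 0.0722) and -3.12 in WT ANG II (adjusted p = 1.03e-05). The KO baseline difference was called with the replicate number as a block (adjusted p = 0.0321). Hspa8, the constitutive cytosolic chaperone, lay on both sides of WT baseline, with 0.78 in KO baseline and -1.72 in WT ANG II, although 2 of its 4 probe sets were not called in the direct comparison. With the mean of its probe sets the difference between KO baseline and WT ANG II was 0.81, against 2.50 with 1 probe set. The KO baseline call against WT baseline was lost with quantile normalization (adjusted p = 0.255) and without KO baseline replicate 2 or 3 or WT baseline replicate 2 or 3. Acsm3, a mitochondrial medium-chain acyl-CoA synthetase, measured 0.09 in KO baseline and -2.41 in WT ANG II, and its difference between the groups was lost with a variance trend (adjusted p = 0.0665).

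The remaining members of the 12 highest were Cxcl14, Lyz2, Igfbp2, Egr1, Smoc2 and Dpt, at log2 differences of 2.41 to 3.11. Each of these 6 was called higher in KO baseline than in WT baseline, at 1.90 to 2.42. Igfbp2, which binds insulin-like growth factors, had ratios of 5.96, 5.14 and 2.95 in KO baseline kidneys, 0.473, 0.912 and 0.798 in WT ANG II kidneys and 1.27, 0.972 and 0.911 in WT baseline kidneys. Cxcl14, a chemokine, gave 3.84, 5.03 and 1.69 in KO baseline kidneys, 0.286, 0.5 and 0.354 in WT ANG II kidneys and 0.811, 1.08 and 0.624 in WT baseline kidneys, and was therefore also lower in WT ANG II than in WT baseline (-1.15 ± 0.33), a call lost with quantile normalization (adjusted p = 0.137) and without WT baseline replicate 1 or 2 or WT ANG II replicate 1 or 3.

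The genes lowest in KO baseline kidneys relative to WT ANG II kidneys mostly stood apart from WT baseline in the WT ANG II arrays. Cyp4a14, a fatty acid hydroxylase of the cytochrome P450 family and a PPAR alpha target, had ratios of 1.15, 0.848 and 0.448 in KO baseline kidneys, 21.4, 32.1 and 25 in WT ANG II kidneys and 0.762, 0.409 and 0.618 in WT baseline kidneys. KO baseline and WT baseline overlapped, and the difference between KO baseline and WT ANG II was -5.09 ± 0.35 on the log2 scale, or 34.0-fold lower. Serpina6, the corticosteroid-binding globulin, gave 0.853, 0.879 and 0.863 in KO baseline kidneys, 12.4, 3.75 and 13.3 in WT ANG II kidneys and 1.03, 0.953 and 1.23 in WT baseline kidneys (9.84-fold lower in KO baseline than in WT ANG II). WT ANG II replicate 2 was the lowest of its group for this gene and still lay above all arrays of the other groups.

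Igfbp1, of the same family as Igfbp2, was 6.13-fold lower in KO baseline than in WT ANG II, the reverse of Igfbp2. Its ratios were 0.818, 0.581 and 0.710 in KO baseline kidneys, 6.07, 5.01 and 2.55 in WT ANG II kidneys and 1.31, 1.30 and 1.18 in WT baseline kidneys. Depp1, known for its induction by progesterone in the decidua, was 4.32-fold lower in KO baseline, over WT ANG II ratios that ranged widely (5.20, 10.7 and 2.03). Clec2h, a C-type lectin family member, was, like Gpx6 and Sugct, one where KO baseline had left WT baseline, by -1.41 (adjusted p = 0.00718) against 0.48 in WT ANG II (adjusted p = 0.195). Npl, which breaks down sialic acid, and Rdh16f2, a retinol dehydrogenase family member, were 3.46-fold and 3.36-fold lower in KO baseline than in WT ANG II.

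**Figure D2:**
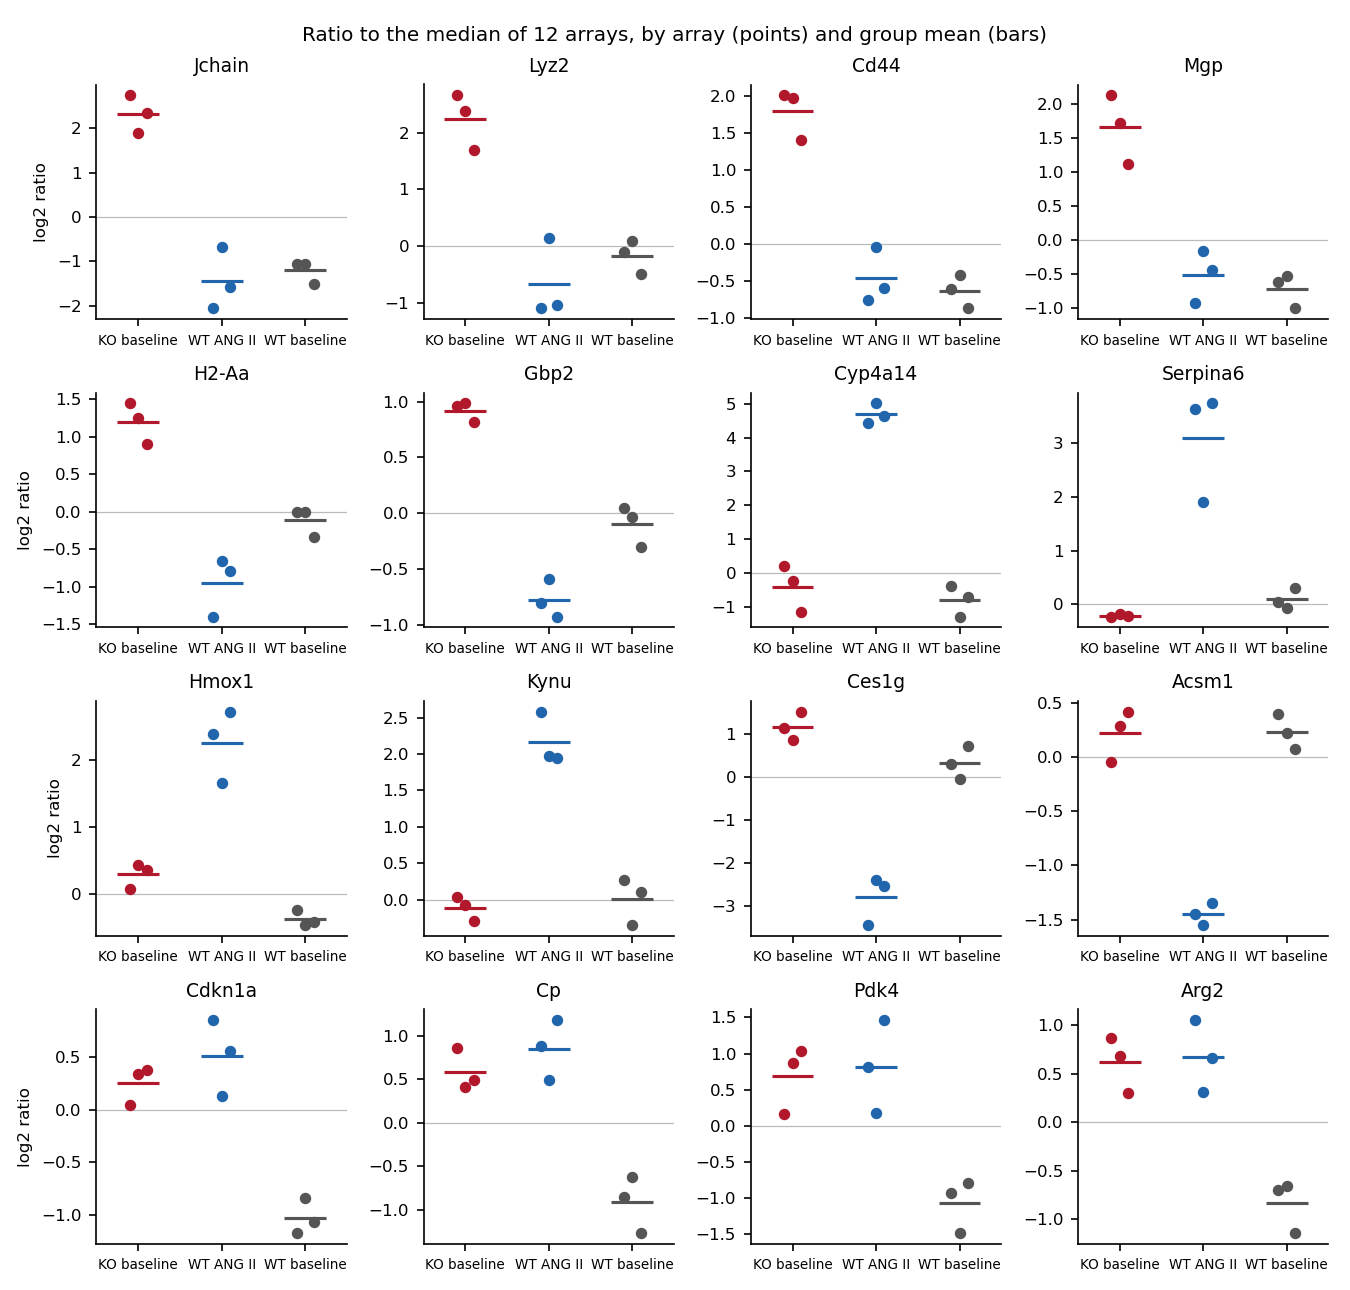
Log2 ratio to the median of 12 arrays (vertical axis, its range set for each gene) in KO baseline (red), WT ANG II (blue) and WT baseline (grey) kidneys, 1 point per array with a bar at the group mean. Jchain, Lyz2, Cd44 and Mgp stand apart in KO baseline, and Cyp4a14, Serpina6, Hmox1, Kynu, Ces1g and Acsm1 stand apart in WT ANG II. For Serpina6, Hmox1 and Ces1g the KO baseline arrays also lie outside the WT baseline range. Cdkn1a, Cp, Pdk4 and Arg2 lie above WT baseline in both.

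Genes of kidney injury were higher in KO baseline more often than lower. Of 161 injury genes measured, 87 were higher in KO baseline than in WT ANG II (54.0%) and 22 were lower (13.7%), while 21.1% of all genes were higher and 25.2% were lower. Their median log2 difference was 0.41, against -0.05 over all genes. Relative to WT baseline, 63 rose and 0 fell in KO baseline (4.52% and 2.04% of all genes), and 24 rose and 23 fell in WT ANG II (9.61% and 14.5% of all genes). So 55 members were higher in KO baseline than in both other groups, and 12 were higher in WT ANG II than in both other groups. The share of all genes in these classes was not counted, so the counts have no array-wide rate beside them.

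Tubular injury and regeneration genes were higher in KO baseline more often than lower. Of 35 measured, 18 were higher in KO baseline than in WT ANG II and 5 were lower. Of all genes 21.1% were higher and 25.2% were lower, so the lower members fell short of the array-wide share. Relative to WT baseline 19 rose and 0 fell in KO baseline (4.52% and 2.04% of all genes). In WT ANG II 11 rose and 2 fell (9.61% and 14.5% of all genes). The list mean was 0.67, 0.60 and 0.37 in KO baseline arrays and 0.06, 0.15 and 0.12 in WT ANG II arrays. It was -0.16, -0.16 and -0.38 in WT baseline arrays. Cd44, a hyaluronan receptor that appears on injured tubule cells, had ratios of 4.02, 3.92 and 2.65 in KO baseline kidneys, 0.593, 0.975 and 0.661 in WT ANG II kidneys and 0.659, 0.748 and 0.547 in WT baseline kidneys. No WT array reached the lowest KO baseline array, and the difference from WT ANG II was 4.78-fold (log2 2.26 ± 0.20, adjusted p = 6.58e-06). S100a6, a calcium-binding protein, was 3.51-fold higher, Vcam1, an adhesion molecule for leukocytes, 3.28-fold higher, and the matricellular gene Ccn1 3.13-fold higher, although quantile normalization ended this last call (adjusted p = 0.0558). The 5 members lower in KO baseline were Anxa1, Hmox1 and the fibrinogen chains Fga, Fgb and Fgg.

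Hmox1, the heme oxygenase, had ratios of 1.06, 1.35 and 1.28 in KO baseline kidneys, 5.26, 3.17 and 6.65 in WT ANG II kidneys and 0.844, 0.723 and 0.744 in WT baseline kidneys, which placed it 3.92-fold lower in KO baseline than in WT ANG II. The fibrinogen chains, which form the clot protein, did likewise: Fgg gave 0.817, 0.806 and 0.729 in KO baseline kidneys, 3.45, 2.18 and 1.62 in WT ANG II kidneys and 1.01, 0.916 and 1.05 in WT baseline kidneys (log2 -1.56 ± 0.19 for KO baseline minus WT ANG II). Fga differed by -1.19 ± 0.16 and Fgb by -1.11 ± 0.16. None of these 4 genes was called between KO baseline and WT baseline.

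A further set of injury genes was raised in both groups relative to WT baseline. There were 8 of them among 161 (0.533% of all genes), namely Cdkn1a, Cp, Dusp1, Havcr1, Inhbb, Lcn2, Myc and Sesn2, and no injury gene was lower in both. Cdkn1a, the p21 inhibitor of the cell cycle, had ratios of 1.03, 1.26 and 1.30 in KO baseline kidneys, 1.80, 1.09 and 1.47 in WT ANG II kidneys and 0.443, 0.558 and 0.477 in WT baseline kidneys. KO baseline and WT ANG II overlapped, and both lay above every WT baseline array. Cp, the copper-carrying ferroxidase ceruloplasmin, showed the same arrangement, with 1.82, 1.33 and 1.41 in KO baseline kidneys, 1.84, 1.41 and 2.27 in WT ANG II kidneys and 0.553, 0.650 and 0.414 in WT baseline kidneys. Of the 8 probe sets of Cp, all were called above WT baseline in KO baseline and 7 in WT ANG II.

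Havcr1 and Lcn2, the tubular injury markers KIM-1 and NGAL, are given here after their values were seen. Havcr1 had ratios of 1.85, 1.28 and 0.998 in KO baseline kidneys, 0.982, 1.85 and 0.945 in WT ANG II kidneys and 0.792, 0.708 and 0.510 in WT baseline kidneys, and was not called between KO baseline and WT ANG II (0.15 ± 0.25, adjusted p = 0.637). Lcn2 gave 4.04, 3.07 and 2.18 in KO baseline kidneys, 1.2, 1.07 and 1.28 in WT ANG II kidneys and 0.685, 0.574 and 0.476 in WT baseline kidneys, so it was higher in KO baseline than in WT ANG II as well (1.35 ± 0.26, adjusted p = 0.00147). Inhbb, the beta B subunit of inhibin and activin, kept the same order, with 2.44, 2.14 and 2.46 in KO baseline kidneys, 1.53, 1.37 and 1.23 in WT ANG II kidneys and 0.621, 0.593 and 0.416 in WT baseline kidneys. Sesn2, a stress-induced regulator of metabolism, ran the other way, with 1.17, 1.03 and 1.14 in KO baseline kidneys, 1.97, 1.59 and 1.67 in WT ANG II kidneys and 0.815, 0.768 and 0.804 in WT baseline kidneys. Its call against WT baseline in KO baseline was lost without any one of the KO baseline or WT baseline arrays (adjusted p up to 0.123, without WT baseline replicate 2).

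Immediate early genes, which encode transcription factors switched on within minutes of a stimulus, were higher in KO baseline more often than lower. Of 33 measured, 15 were higher in KO baseline than in WT ANG II, 6 were lower and 12 were not called (median 0.21), where 21.1% of all genes were higher and 25.2% were lower, and 16 were higher in KO baseline than in WT baseline. Egr1 had ratios of 4.86, 3.36 and 5.14 in KO baseline kidneys, 0.616, 0.759 and 0.905 in WT ANG II kidneys and 1.19, 1.09 and 0.690 in WT baseline kidneys (5.83-fold, adjusted p = 0.000274). Fos, a subunit of AP-1, was 3.31-fold higher and its partner Jun 2.36-fold higher in KO baseline than in WT ANG II. The 6 members that were lower, Csrnp1, Egr3, Fosl1, Fosl2, Jund and Nr4a2, differed by -0.27 to -0.60. Myc was not called between KO baseline and WT ANG II (0.04 ± 0.13, adjusted p = 0.818) and was above WT baseline in both (0.73 and 0.69). Dusp1, a phosphatase that ends MAP kinase signals, was above WT baseline in both (0.74 in KO baseline and 0.40 in WT ANG II), the second call being lost without WT ANG II replicate 2 or WT baseline replicate 1 (adjusted p up to 0.0632).

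Targets of p53 and NRF2 were higher in KO baseline more often than lower. Of 19 p53 targets and growth arrest genes 8 were higher and 3 were lower, where 21.1% of all genes were higher and 25.2% were lower. Pmaip1, the cell death gene NOXA, measured 1.41 ± 0.16 and the antiproliferative gene Btg2 0.82 ± 0.16. Against WT baseline, Pmaip1 measured 0.40 in KO baseline (adjusted p = 0.16) and fell in WT ANG II (-1.01). Btg2 rose in KO baseline (1.11) and measured 0.29 in WT ANG II (adjusted p = 0.184). Among 25 targets of NRF2, the regulator of antioxidant enzymes, 13 were higher in KO baseline and 4 were lower (median 0.52). The quinone reductase Nqo1 had ratios of 1.30, 1.80 and 1.80 in KO baseline kidneys, 0.884, 0.808 and 0.801 in WT ANG II kidneys and 1.28, 1.12 and 1.48 in WT baseline kidneys. Gstp1, a glutathione transferase, measured 0.88 and Osgin1 1.12, again with WT ANG II below WT baseline (-0.63 and -0.76). That call of Osgin1 was lost without WT ANG II replicate 2 or WT baseline replicate 1 or 3 (adjusted p up to 0.0829). Cbr3, a carbonyl reductase, was raised in KO baseline over both WT groups (0.87 and 1.06).

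Within the NRF2 list, Gclm and Ugdh were called in opposite directions against WT baseline, and they were the only injury genes to be so. Gclm, the modifier subunit of the enzyme that starts glutathione synthesis, had ratios of 1.23, 1.25 and 1.48 in KO baseline kidneys, 0.793, 0.777 and 0.820 in WT ANG II kidneys and 1.05, 1.03 and 0.987 in WT baseline kidneys. Ugdh, which makes UDP-glucuronate, gave 1.24, 1.48 and 1.64 in KO baseline kidneys, 0.825, 0.823 and 0.828 in WT ANG II kidneys and 1.08, 1.10 and 1.07 in WT baseline kidneys. No injury gene was left in that class when the values were quantile-normalized again or without WT baseline replicate 2 or 3, and 1 was left without KO baseline replicate 2, while the direct differences of 0.73 and 0.81 were called under every alternative. Hmox1 belongs to the same list and ran against it, as did Cbr1, Gsta2 and Srxn1 at -0.47 to -0.60.

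Matrix and fibrosis genes formed the injury list with the largest median difference. Of 36 measured, 27 were higher in KO baseline than in WT ANG II and 1, Dcn, was lower (-0.33), with a median of 0.88. Mgp, the matrix Gla protein, had ratios of 4.36, 3.28 and 2.16 in KO baseline kidneys, 0.525, 0.887 and 0.737 in WT ANG II kidneys and 0.647, 0.690 and 0.496 in WT baseline kidneys (4.48-fold, adjusted p = 2.86e-05). Smoc2, a matricellular calcium-binding protein, gave 5.64, 4.94 and 2.06 in KO baseline kidneys, 0.510, 0.949 and 0.732 in WT ANG II kidneys and 1.05, 1.16 and 0.510 in WT baseline kidneys. KO baseline overlapped neither WT group for these genes, the WT groups overlapped each other, and KO baseline replicate 3 was the lowest of its group for both.

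Some matrix genes had WT ANG II below WT baseline as well. Tnc, the tenascin of repairing tissue, had ratios of 2.37, 1.91 and 1.55 in KO baseline kidneys, 0.298, 0.522 and 0.458 in WT ANG II kidneys and 1.09, 1.05 and 0.685 in WT baseline kidneys, so the direct difference (2.21 ± 0.34) exceeded the difference from WT baseline in KO baseline (1.05 ± 0.34, adjusted p = 0.0828). Col1a2, a chain of type I collagen, gave 2.27, 1.85 and 1.08 in KO baseline kidneys, 0.370, 0.552 and 0.381 in WT ANG II kidneys and 1.03, 1.15 and 0.706 in WT baseline kidneys. It was called between KO baseline and WT ANG II (1.96 ± 0.26) but not between KO baseline and WT baseline (0.81 ± 0.26, adjusted p = 0.0746). The fall of Tnc in WT ANG II relative to WT baseline was lost with quantile normalization (adjusted p = 0.132) and without WT ANG II replicate 1 or 3 or WT baseline replicate 1 or 2, and that of Col1a2 with the mean of its probe sets (adjusted p = 0.0589). The mean log2 ratio of the 36 genes was 0.92, 0.70 and 0.38 in KO baseline arrays, -0.54, -0.17 and -0.34 in WT ANG II arrays and -0.07, 0.03 and -0.30 in WT baseline arrays.

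Endoplasmic reticulum stress genes were called in both directions. Of 19 measured 9 were higher and 4 were lower in KO baseline than in WT ANG II. Of all genes 21.1% were higher and 25.2% were lower, so only the higher count exceeded its share. Hspa5, the chaperone BiP, measured 0.67 ± 0.14 but had 2 probe sets called higher and 1 called lower, and the secreted chaperone-like genes Creld2 and Manf measured 1.01 and 0.85. The 4 lower were Atf4, the transcription factor of the amino acid response, and Asns, Chac1 and Trib3, which it is known to activate. Chac1, an enzyme that degrades glutathione, was the largest, with ratios of 1.09, 0.738 and 0.893 in KO baseline kidneys, 2.56, 4.17 and 1.27 in WT ANG II kidneys and 0.940, 0.929 and 0.748 in WT baseline kidneys.

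**Figure D3:**
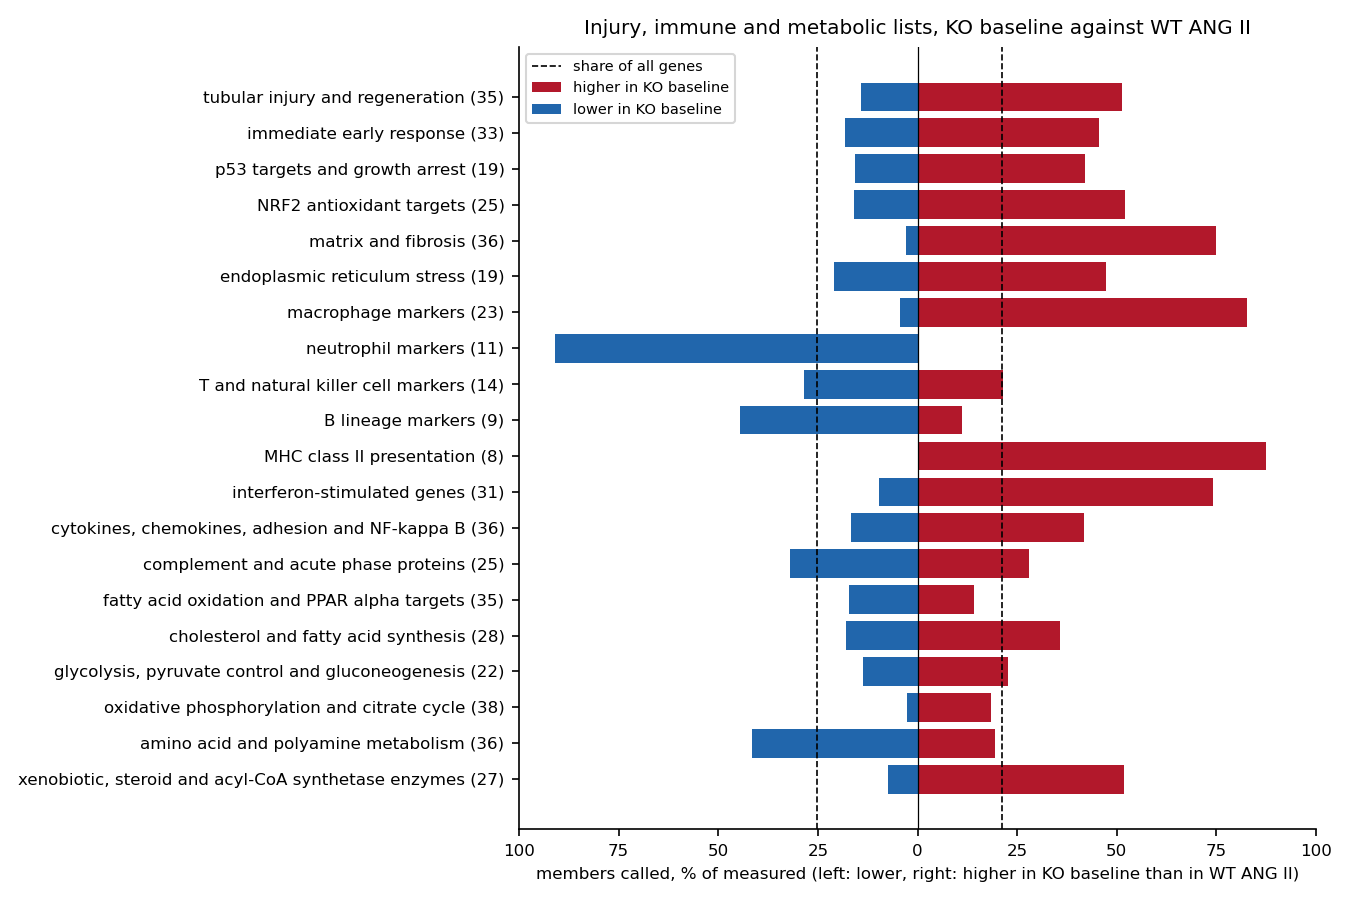
Share of the measured members of each list (number in brackets) called higher (red, right) and lower (blue, left) in KO baseline than in WT ANG II kidneys, in percent. Dashed lines mark the share of all 18193 genes called, 21.1% higher and 25.2% lower; macrophage markers, MHC class II, interferon-stimulated and matrix genes reach far to the right and neutrophil markers far to the left.

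Immune genes were also higher in KO baseline more often than lower, and their lists went in different directions. Of 154 measured, 72 were higher in KO baseline than in WT ANG II (46.8%) and 36 were lower (23.4%), against 21.1% and 25.2% of all genes, with a median of 0.28. Relative to WT baseline, 59 rose and 0 fell in KO baseline (4.52% and 2.04% of all genes). In WT ANG II, 20 rose and 25 fell, not far from the 9.61% and 14.5% of all genes. In whole-kidney RNA, more cells of a type and more RNA per cell cannot be told apart, for these lists and for those above.

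Macrophage markers had the largest median of all lists. Of 23 measured, 19 were higher in KO baseline than in WT ANG II and 1, Laptm5, was lower (-0.64), with a median log2 difference of 1.41. Lyz2, the lysozyme of myeloid cells, had ratios of 6.33, 5.20 and 3.24 in KO baseline kidneys, 0.465, 1.10 and 0.483 in WT ANG II kidneys and 0.932, 1.07 and 0.707 in WT baseline kidneys (7.55-fold, adjusted p = 4.15e-05). Ctss, the cysteine protease cathepsin S, gave 3.68, 3.15 and 2.34 in KO baseline kidneys, 0.468, 0.836 and 0.533 in WT ANG II kidneys and 1.02, 0.976 and 0.767 in WT baseline kidneys. The membrane gene Ms4a7 was 4.26-fold higher and C1qb, a chain of the first complement component, 4.59-fold higher. The mean log2 ratio over the 23 markers was 1.14, 0.99 and 0.61 in KO baseline arrays, -0.54, -0.28 and -0.42 in WT ANG II arrays and 0.01, -0.02 and -0.29 in WT baseline arrays. KO baseline replicate 3 was the lowest of its group and still above every WT array.

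Several macrophage markers differed from WT baseline in opposite directions. Cd68, a lysosomal protein of phagocytes, had ratios of 2.68, 2.68 and 1.88 in KO baseline kidneys, 0.595, 0.574 and 0.523 in WT ANG II kidneys and 1.18, 1.02 and 0.595 in WT baseline kidneys. Tyrobp, a signalling adaptor of myeloid receptors, gave 2.62, 2.28 and 1.67 in KO baseline kidneys, 0.450, 0.779 and 0.680 in WT ANG II kidneys and 1.04, 0.988 and 0.872 in WT baseline kidneys. The fall in WT ANG II relative to WT baseline was 0.67 for Cd68 (adjusted p = 0.0293) and 0.64 for Tyrobp (adjusted p = 0.0293) on the log2 scale, as magnitudes. The Cd68 call was lost with quantile normalization (adjusted p = 0.176), with a variance per group (adjusted p = 0.0585) and without WT baseline replicate 1 or 2 or WT ANG II replicate 2 or 3. The Tyrobp call was lost with quantile normalization (adjusted p = 0.0985) and with array weights (adjusted p = 0.0538). It was also lost without WT baseline replicate 1 (adjusted p = 0.104) or 2, or WT ANG II replicate 1.

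Neutrophil markers went the other way. Of 11 measured, 10 were lower in KO baseline than in WT ANG II and 0 were higher (median -0.49). Of all genes, 25.2% were lower and 21.1% were higher. The ranges of all 11 did not overlap, where 30.1% of all genes had KO baseline wholly below WT ANG II. Several of the calls were under 1.5-fold. Calls of that size leaned lower across the array as well (9597 probe sets lower and 6295 higher). S100a9, a subunit of calprotectin, had ratios of 0.579, 0.538 and 0.503 in KO baseline kidneys, 1.12, 2.45 and 1.10 in WT ANG II kidneys and 0.730, 0.897 and 0.823 in WT baseline kidneys (-1.43 ± 0.41, adjusted p = 0.0128). WT ANG II replicate 2 was the highest array, and the call ended without it (adjusted p = 0.0635). Cxcr2, the chemokine receptor of neutrophils, gave 0.860, 0.699 and 0.900 in KO baseline kidneys, 1.14, 1.30 and 1.77 in WT ANG II kidneys and 1.07, 0.955 and 0.954 in WT baseline kidneys. The protease gene Elane differed by -0.66 ± 0.12 and Csf3r, the receptor for granulocyte colony-stimulating factor, by -0.49 ± 0.13. None of the 11 was called between KO baseline and WT baseline, and 6 were called higher in WT ANG II than in WT baseline. Of these 6, Csf3r, Cxcr2, Elane and Ngp all lost that call with quantile normalization (adjusted p = 0.0627 to 0.156) and without WT ANG II replicate 3 (adjusted p = 0.052 to 0.164), and each also lost it when a single WT baseline array, replicate 1 or 2, was left out.

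Lymphocyte markers were mixed. Of 14 T and natural killer cell markers 3 were higher and 4 were lower in KO baseline than in WT ANG II. Both counts were near the shares of all genes, 21.1% and 25.2%. Il7r, the interleukin 7 receptor, had ratios of 1.65, 2.27 and 1.63 in KO baseline kidneys, 1.05, 1.01 and 1.06 in WT ANG II kidneys and 0.873, 0.899 and 0.755 in WT baseline kidneys, whereas the T cell receptor subunit gene Cd3e gave 0.916, 0.795 and 0.876 in KO baseline kidneys and 1.01, 1.25 and 1.45 in WT ANG II kidneys. Of 9 B lineage markers 1, Jchain, was higher and 4, Blk, Ms4a1, Pax5 and Vpreb3, were lower by 0.43 to 0.57 on the log2 scale. The calls of Blk, Ms4a1 and Pax5 each ended under at least 1 alternative (adjusted p up to 0.211, 0.141 and 0.105). Markers of tissues other than kidney were measured beside these: 4 of 7 adrenal cortex markers were lower in KO baseline and 0 higher (median -0.37), where 25.2% of all genes were lower, and the list means were -0.12, -0.20 and -0.11 in KO baseline arrays, 0.04, 0.18 and 0.32 in WT ANG II arrays and -0.02, 0.06 and 0.04 in WT baseline arrays. Of 9 skeletal muscle markers 2 were lower, near the 25.2% of all genes, and 0 were higher, where 21.1% of all genes were. The part of the adrenal marker difference in the neutrophil and lymphocyte calls was not tested.

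Genes of MHC class II presentation, by which macrophages, dendritic cells and B cells show antigen to T cells, were higher in KO baseline. Of 8 measured 7 were called, all higher, with a median of 1.28. H2-Aa, an alpha chain, had ratios of 2.73, 2.38 and 1.88 in KO baseline kidneys, 0.378, 0.635 and 0.579 in WT ANG II kidneys and 1.00, 0.999 and 0.788 in WT baseline kidneys (4.44-fold, adjusted p = 6e-06). No 2 of the 3 groups overlapped, and KO baseline lay above and WT ANG II below WT baseline. Its beta chain partner H2-Ab1 measured 1.56 ± 0.15, H2-Eb1, a further beta chain, 1.71 ± 0.16, and the invariant chain Cd74 1.82 ± 0.18. Ciita, the transactivator of these genes, was not called (-0.21 ± 0.10, adjusted p = 0.087), with ratios of 1.00, 0.822 and 1.02 in KO baseline kidneys and 1.11, 1.00 and 1.17 in WT ANG II kidneys.

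Promoters of class II genes carry a Y box, an inverted CCAAT element. The 3 that hold its core are shown, and they belong to members called higher in KO baseline than in WT ANG II. Against WT baseline, H2-Aa and H2-Eb1 were called lower in WT ANG II (-0.83 and -0.51), while H2-Oa was not called (0.06). The sequences are from RefSeq for build GRCm38.p6, cover 250 bases before to 50 after the gene start, and run 5′ to 3′ along the gene, with the letters CTGATTGG in capitals. H2-Aa is chr17:34287774-34288073 on the minus strand, H2-Eb1 is chr17:34305617-34305916 on the plus strand, and H2-Oa is chr17:34092129-34092428 on the plus strand.
H2-Aa: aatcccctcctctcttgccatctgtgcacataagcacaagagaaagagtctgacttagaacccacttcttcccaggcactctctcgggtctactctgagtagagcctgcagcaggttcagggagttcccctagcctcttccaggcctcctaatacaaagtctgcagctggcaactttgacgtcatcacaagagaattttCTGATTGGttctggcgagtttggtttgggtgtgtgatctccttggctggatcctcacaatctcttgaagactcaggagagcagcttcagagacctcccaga
H2-Eb1: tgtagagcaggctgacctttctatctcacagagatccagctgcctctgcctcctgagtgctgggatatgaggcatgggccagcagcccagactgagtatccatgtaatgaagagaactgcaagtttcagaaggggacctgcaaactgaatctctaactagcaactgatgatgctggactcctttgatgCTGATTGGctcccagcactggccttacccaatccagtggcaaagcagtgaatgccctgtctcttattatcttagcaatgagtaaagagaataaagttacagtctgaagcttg
H2-Oa: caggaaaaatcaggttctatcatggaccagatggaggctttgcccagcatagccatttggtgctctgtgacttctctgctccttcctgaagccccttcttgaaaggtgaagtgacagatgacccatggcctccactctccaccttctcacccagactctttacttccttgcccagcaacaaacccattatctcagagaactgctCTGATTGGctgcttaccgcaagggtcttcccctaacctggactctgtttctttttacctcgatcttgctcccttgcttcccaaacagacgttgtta
CTGATTGG begins 51 bases before the start in H2-Aa, 62 in H2-Eb1 and 46 in H2-Oa. Searched on both strands, these letters were found in 3 of the 5 measured class II genes with a window, and in 4.70% of all 27025 genes with a window (4.10% of 32851 windows). H2-Oa, a chain of the class II modulator DO, was higher in KO baseline than in WT ANG II by 0.61 ± 0.13, with ratios of 1.23, 1.40 and 1.60 in KO baseline kidneys, 0.727, 0.993 and 1.07 in WT ANG II kidneys and 0.872, 0.934 and 0.831 in WT baseline kidneys.

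Interferon-stimulated genes, which are switched on by interferons during infection and inflammation, were higher in KO baseline for the most part. Of 31 measured, 23 were higher and 3, Dhx58, Mx2 and Oas2, were lower than in WT ANG II, with a median of 0.57. Relative to WT baseline 15 rose in KO baseline and 11 fell in WT ANG II. Gbp2, a guanylate-binding protein, had ratios of 1.94, 1.98 and 1.76 in KO baseline kidneys, 0.572, 0.662 and 0.525 in WT ANG II kidneys and 1.03, 0.979 and 0.809 in WT baseline kidneys (3.24-fold, adjusted p = 7.7e-07). Ifit1, which blocks translation of foreign RNA, gave 2.18, 1.67 and 1.89 in KO baseline kidneys, 0.567, 0.679 and 0.792 in WT ANG II kidneys and 1.27, 0.988 and 0.807 in WT baseline kidneys. In both genes the 3 groups did not overlap, with KO baseline highest and WT ANG II lowest, although WT ANG II replicate 3 and WT baseline replicate 3 lay close together for Ifit1.

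Many such genes carry an interferon-stimulated response element, and the promoters of Gbp2 and Ifit1 are shown with the letters GAAA, any 2 bases and GAAA, or their reverse complement, in capitals. The elements searched were chosen after values were seen. Gbp2 is chr3:142620413-142620712 and Ifit1 is chr19:34640639-34640938, both on the plus strand.
Gbp2: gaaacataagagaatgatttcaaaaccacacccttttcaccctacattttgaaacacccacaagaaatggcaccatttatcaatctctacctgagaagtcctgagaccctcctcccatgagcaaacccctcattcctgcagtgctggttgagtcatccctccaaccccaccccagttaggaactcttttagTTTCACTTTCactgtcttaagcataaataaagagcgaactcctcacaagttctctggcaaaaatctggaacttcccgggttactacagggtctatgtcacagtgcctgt
Ifit1: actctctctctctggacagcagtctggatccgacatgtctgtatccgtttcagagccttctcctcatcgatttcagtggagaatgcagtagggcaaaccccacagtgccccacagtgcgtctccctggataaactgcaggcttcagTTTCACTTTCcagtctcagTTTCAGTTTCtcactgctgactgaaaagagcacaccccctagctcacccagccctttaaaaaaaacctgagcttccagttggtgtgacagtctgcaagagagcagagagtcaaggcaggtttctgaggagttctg
Gbp2 holds the match 59 bases before its start, and Ifit1 holds 2 matches that begin 104 and 85 bases before its start. On both strands the letters were found in 12 of the 23 measured interferon genes with a window and in 3.99% of all genes with a window (3.44% of windows). Of these 12, Stat2 was the one not called between KO baseline and WT ANG II. The strongest members without such a match or without a window included Oasl2, an oligoadenylate synthetase-like gene (1.80 ± 0.15), and Rtp4 (1.75 ± 0.14).

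Of 36 genes of cytokines, chemokines, adhesion and NF-kappa B, 15 were higher and 6 were lower in KO baseline than in WT ANG II, against 21.1% and 25.2% of all genes. Cxcl1, which attracts neutrophils, had ratios of 4.02, 4.45 and 2.67 in KO baseline kidneys, 0.829, 1.10 and 0.949 in WT ANG II kidneys and 0.702, 0.996 and 0.963 in WT baseline kidneys, and the WT groups overlapped. Cxcl9 and Cxcl10, chemokines for T cells, were 2.54-fold and 2.63-fold higher in KO baseline. Tnf, Il1a, Ccl4, Csf1, Sele and Birc3 were the 6 lower, by 0.31 to 0.51 on the log2 scale.

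Complement and acute phase genes were called in both directions, 7 of 25 higher and 8 lower in KO baseline than in WT ANG II (median -0.12), which is near the 21.1% and 25.2% of all genes. The higher ones included the proteases of the classical pathway, with C1ra at 1.84 ± 0.12 and C1s1 at 2.02 ± 0.23, and the lower ones were the fibrinogen chains with Cfb, Hp, Lbp, Saa1 and Saa3. C1ra had ratios of 2.07, 1.97 and 1.53 in KO baseline kidneys, 0.549, 0.530 and 0.466 in WT ANG II kidneys and 1.13, 1.06 and 0.905 in WT baseline kidneys, with no overlap among the 3 groups.

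Few immune genes were shared against WT baseline. Cp was the 1 gene raised in both groups, and none was lower in both. In contrast 20 of 154 were called in opposite directions (0.753% of all genes), every one of them higher in KO baseline and lower in WT ANG II. They were the phagocyte genes Adgre1, C1qc, Cd68, Mrc1 and Tyrobp, the class II genes Cd74, H2-Aa and H2-Eb1, the interferon genes Bst2, Gbp2, Ifit1, Iigp1, Oasl2, Psmb8, Rtp4, Usp18 and Xaf1, and C1ra, C1s1 and Cxcl12. With quantile normalization 4 immune genes were called so, without WT baseline replicate 1 or 2 there were 7, and without WT ANG II replicate 1 or 3 there were 12. With the replicate number as a block, Iigp1 was no longer called between WT ANG II and WT baseline (adjusted p = 0.0508).

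**Figure D4:**
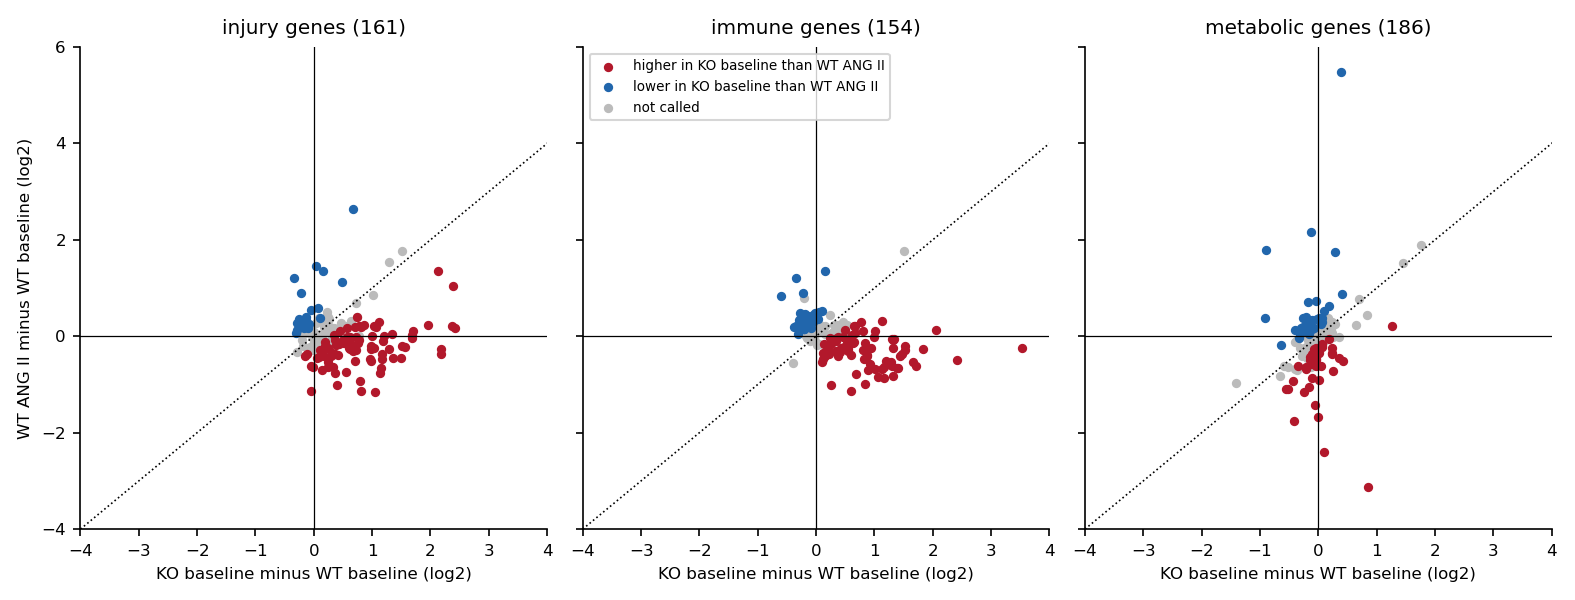
Log2 difference from WT baseline of KO baseline kidneys (horizontal axis) and of WT ANG II kidneys (vertical axis) for each injury, immune and metabolic gene; colour gives the call between KO baseline and WT ANG II, and the dotted line marks equal differences. The axes share the WT baseline arrays. Injury and immune genes spread to the right, and metabolic genes spread mainly along the vertical axis.

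Metabolic genes were called in both directions. Of 186 measured, 48 were higher in KO baseline than in WT ANG II (25.8%) and 32 were lower (17.2%), with a median of 0.07, where 21.1% of all genes were higher and 25.2% were lower. Relative to WT baseline 5 rose and 12 fell in KO baseline, and 26 rose and 53 fell in WT ANG II. Over all genes 4.52% rose and 2.04% fell in KO baseline, and 9.61% rose and 14.5% fell in WT ANG II, so WT ANG II had the more calls array-wide as well. Of the metabolic genes, 41 were lower in WT ANG II than in both other groups and 18 were higher than in both. In KO baseline 0 metabolic genes were higher and 3 lower than in both. The share of all genes in these classes was not counted. Quantile normalization reduced the direct calls to 31 higher and 18 lower.

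Enzymes of xenobiotic and steroid metabolism and the medium-chain acyl-CoA synthetases stood out among the metabolic lists, with 14 of 27 higher and 2, Fmo1 and Sult1d1, lower in KO baseline than in WT ANG II. Acsm1 had ratios of 0.970, 1.22 and 1.33 in KO baseline kidneys, 0.367, 0.342 and 0.394 in WT ANG II kidneys and 1.31, 1.16 and 1.05 in WT baseline kidneys (3.17-fold, adjusted p = 1.36e-06). KO baseline and WT baseline overlapped, and WT ANG II was low on every array. Akr1c14, a hydroxysteroid dehydrogenase, was 1.98-fold higher. The mean log2 ratio of the list was 0.04, 0.09 and 0.14 in KO baseline arrays, -0.51, -0.39 and -0.48 in WT ANG II arrays and 0.05, 0.04 and 0.14 in WT baseline arrays. Proximal tubule markers moved beside it, at -0.09, -0.07 and -0.07 in KO baseline arrays, -0.57, -0.44 and -0.46 in WT ANG II arrays and 0.11, -0.03 and 0.13 in WT baseline arrays, and their part in the result was not tested.

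Amino acid and polyamine metabolism was the metabolic list with most calls toward WT ANG II, with 15 of 36 lower and 7 higher in KO baseline. With 25.2% of all genes lower and 21.1% higher, only the lower count exceeded its share. Kynu, the kynureninase of tryptophan breakdown, had ratios of 1.02, 0.954 and 0.817 in KO baseline kidneys, 5.99, 3.94 and 3.85 in WT ANG II kidneys and 1.21, 0.787 and 1.08 in WT baseline kidneys, though 1 of its 2 probe sets was not called. Gldc, of the glycine cleavage system, gave 1.00, 0.995 and 1.04 in KO baseline kidneys, 4.37, 1.95 and 2.65 in WT ANG II kidneys and 0.873, 0.701 and 0.953 in WT baseline kidneys. Bhmt, which remethylates homocysteine with betaine, was 2.44-fold lower in KO baseline than in WT ANG II, and here KO baseline had left WT baseline (-0.91, adjusted p = 0.0123; 0.0562 without WT baseline replicate 2). Odc1, the first enzyme of polyamine synthesis, was 2.57-fold higher in KO baseline, with ratios of 0.837, 0.925 and 1.36 in KO baseline kidneys, 0.416, 0.403 and 0.369 in WT ANG II kidneys and 1.05, 0.951 and 1.2 in WT baseline kidneys.

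Hpd, the dioxygenase of tyrosine breakdown, was the 1 metabolic gene called in opposite directions against WT baseline. It had ratios of 0.452, 0.998 and 0.503 in KO baseline kidneys, 5.28, 2.98 and 3.83 in WT ANG II kidneys and 1.16, 1.00 and 1.28 in WT baseline kidneys, and was 6.43-fold lower in KO baseline than in WT ANG II. Its difference from WT baseline in KO baseline (-0.91 ± 0.25, adjusted p = 0.048) lay near the threshold. It missed it without any one WT baseline or KO ANG II array, KO baseline replicate 1 or 3, or WT ANG II replicate 3 (adjusted p up to 0.171, without WT baseline replicate 3). KO baseline replicate 2 lay next to the WT baseline range while replicates 1 and 3 lay below it.

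Fatty acid oxidation and PPAR alpha targets had 5 of 35 higher and 6 lower in KO baseline than in WT ANG II (median -0.01). Both counts fell short of the shares of all genes, 21.1% and 25.2%. Relative to WT baseline 1 rose and 1 fell in KO baseline, and 9 rose and 4 fell in WT ANG II (9.61% and 14.5% of all genes). The list mean, which includes Cyp4a14, was -0.031 to 0.045 in KO baseline arrays, 0.050 to 0.248 in WT ANG II arrays and -0.190 to -0.016 in WT baseline arrays. Apart from Cyp4a14, the direct differences were small: Acot1, an acyl-CoA thioesterase, measured -0.78 ± 0.18 and Ppara itself -0.44 ± 0.14. The call for Ppara was lost with quantile normalization (adjusted p = 0.0822) and with array weights (adjusted p = 0.0531). It was also lost without WT ANG II replicate 3 (adjusted p = 0.0979) or 1, or KO baseline replicate 1. Cholesterol and fatty acid synthesis had 10 of 28 higher and 5 lower, and only the higher count exceeded its share of all genes. Idi1, which makes the isoprenoid building block, had ratios of 0.849, 0.960 and 0.930 in KO baseline kidneys, 0.355, 0.430 and 0.309 in WT ANG II kidneys and 1.2, 1.38 and 1.08 in WT baseline kidneys (2.52-fold), and Cyp51, a sterol demethylase, was 1.70-fold higher.

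Energy metabolism showed small differences. In glycolysis, pyruvate control and gluconeogenesis 5 of 22 were higher and 3 were lower. The higher count was near the 21.1% of all genes, and the lower count was below the 25.2%. Pfkfb3, which makes the activator of glycolysis, measured 0.92 ± 0.17. G6pc, the glucose-6-phosphatase, measured -0.47 ± 0.12, which quantile normalization left uncalled (adjusted p = 0.0873). In oxidative phosphorylation and the citrate cycle 7 of 38 were higher and 1, Uqcrc2, was lower (not with the mean of its probe sets, adjusted p = 0.0587), against 21.1% and 25.2% of all genes. Cycs, which encodes cytochrome c, was the largest, with ratios of 0.939, 0.958 and 1.02 in KO baseline kidneys, 0.494, 0.617 and 0.471 in WT ANG II kidneys and 1.02, 1.10 and 1.12 in WT baseline kidneys and all 4 of its probe sets called.

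The metabolic genes that both groups shared against WT baseline were 3 raised in both and 7 lowered in both (0.533% and 0.55% of all genes). Pdk4, the kinase that shuts off pyruvate oxidation, had ratios of 1.12, 1.82 and 2.04 in KO baseline kidneys, 1.76, 1.13 and 2.76 in WT ANG II kidneys and 0.526, 0.357 and 0.579 in WT baseline kidneys. Arg2, the mitochondrial arginase, gave 1.83, 1.61 and 1.23 in KO baseline kidneys, 2.08, 1.25 and 1.58 in WT ANG II kidneys and 0.613, 0.635 and 0.451 in WT baseline kidneys. In both genes KO baseline and WT ANG II overlapped and every array of either exceeded every WT baseline array. The difference between KO baseline and WT ANG II was -0.13 ± 0.33 for Pdk4 and -0.06 ± 0.20 for Arg2. Sult1a1, a sulfotransferase, was the third, at 0.70 in KO baseline and 0.78 in WT ANG II.

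The 7 lower in both were Acsm5, Aldh4a1, Dhcr7, Fabp3, Fdps, Gatm and Nsdhl, of which Dhcr7, Fdps and Nsdhl act in cholesterol synthesis. Dhcr7, a late reductase of that pathway, had ratios of 0.992, 0.977 and 0.809 in KO baseline kidneys, 0.668, 0.586 and 0.637 in WT ANG II kidneys and 1.43, 1.36 and 1.27 in WT baseline kidneys, so KO baseline lay between the other groups. Gatm, which starts creatine synthesis, held the same order, with 0.986, 0.811 and 0.908 in KO baseline kidneys, 0.530, 0.773 and 0.549 in WT ANG II kidneys and 1.27, 1.36 and 1.25 in WT baseline kidneys. Fabp3, a fatty acid carrier, gave 0.947, 1.00 and 0.751 in KO baseline kidneys, 0.800, 0.793 and 0.884 in WT ANG II kidneys and 1.36, 1.30 and 1.18 in WT baseline kidneys, but its other probe set was called lower in KO baseline than in WT ANG II. Against WT baseline, the KO baseline calls of Acsm5, Aldh4a1, Fabp3, Fdps, Gatm and Nsdhl each ended under at least 1 alternative. The count of metabolic genes shared in either direction was 10, and it was 4 without WT baseline replicate 2, and 5 or 6 without WT baseline replicate 3 or KO baseline replicate 1 or 3.

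**Figure D5:**
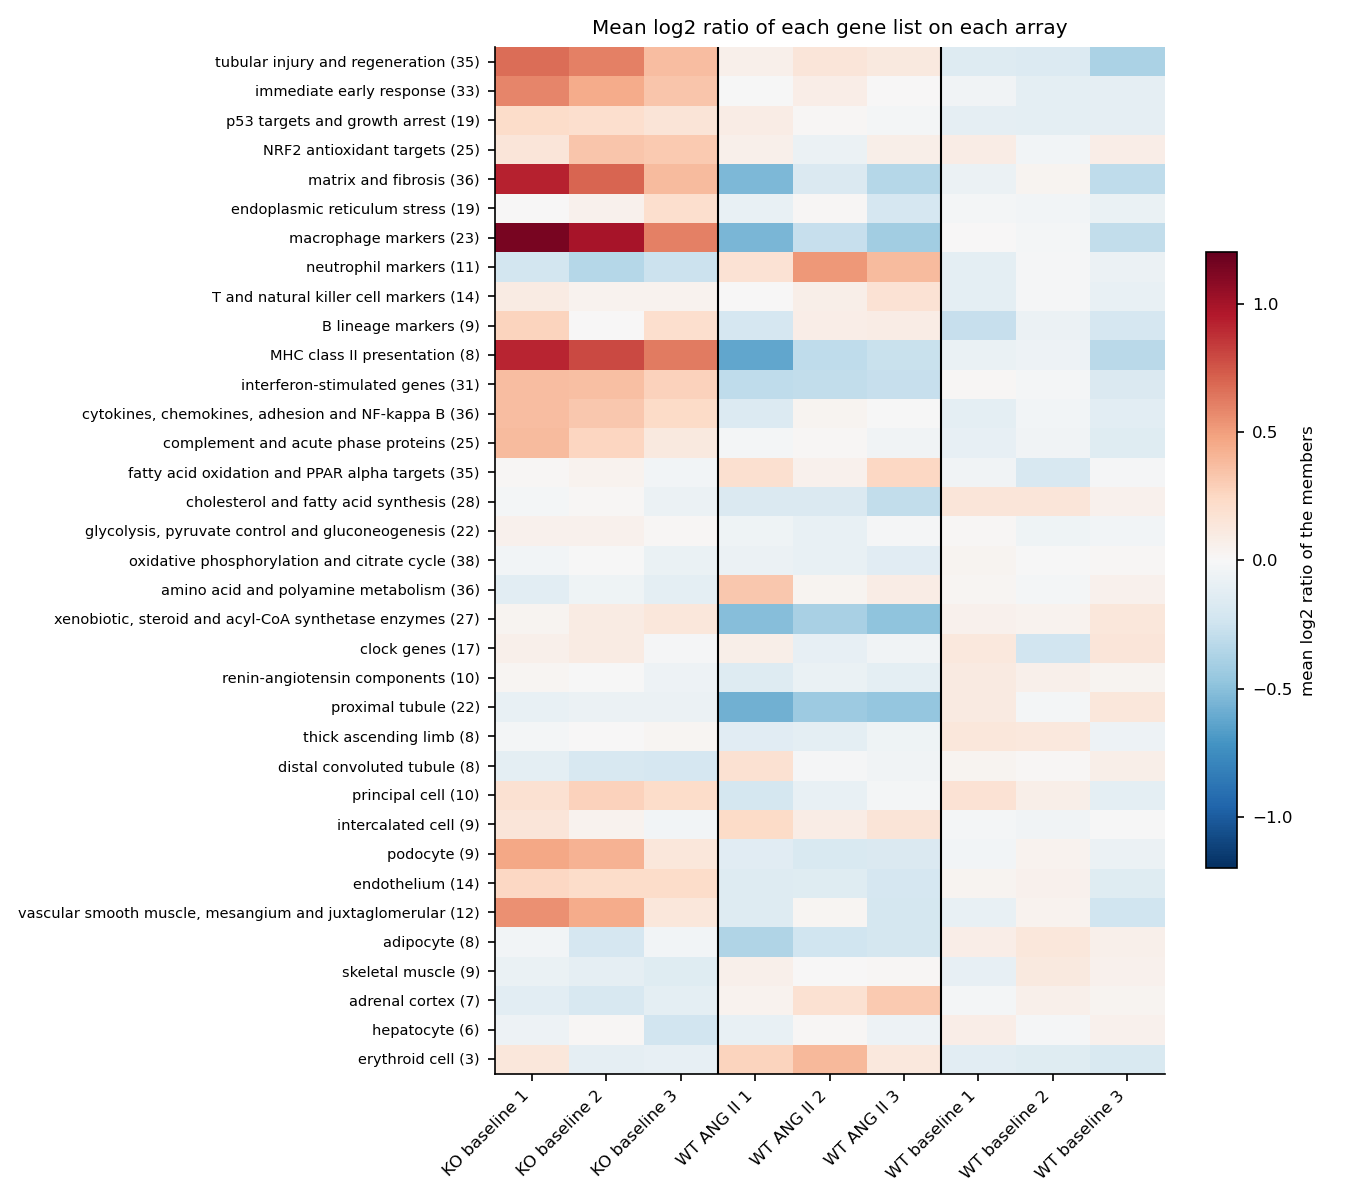
Mean log2 ratio of the measured members (number in brackets) of each list on each array of KO baseline, WT ANG II and WT baseline kidneys, on a colour scale from blue (below the median of the 12 arrays) to red (above it). Macrophage, MHC class II and matrix lists are red on the KO baseline arrays, least so on replicate 3, and xenobiotic and proximal tubule lists are blue on the WT ANG II arrays.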

How the data were processed

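Per the labels, total RNA of snap-frozen kidneys was labelled by an Affymetrix protocol and hybridized to arrays, 3 mice in each of 4 groups. The submitters' processing notes name RMA, version not given in the sources used here. The deposited values were read as linear ratios to a probe set's median over 12 arrays, since the median lay within 0.002 of 1 for 45099 of 45101 probe sets; the authors do not state the division. The other 2 (Dhx29 and Rdh10) were left undivided, which does not alter a difference between groups. No arrays held identical values.

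Ratios were put on the log2 scale with no pseudocount, and 64 control probe sets were left out. Of 45037 tested, 34945 had 1 gene symbol, 932 several and 9160 none. With limma 3.58.1 (R 4.3.3), 4 group means were estimated from all 12 arrays (8 residual and 5.83 prior degrees of freedom), and tests were two-sided with Benjamini-Hochberg adjustment over all probe sets within each of 3 contrasts. A gene was counted by 1 probe set, a plain _at before _a_at, _s_at and _x_at, then the lowest number. Listed genes without a probe set of 1 symbol were not analysed here.

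The comparison, the 36 gene lists and the genes named were chosen with earlier results of these data known. Named genes were Agtr1a, Sugct and Gpx6, the 12 highest and 12 lowest called genes whose groups did not overlap, up to 5 called members of each list (3 for cell type, clock and renin-angiotensin lists), and up to 3 per list shared with or opposed to WT baseline. Other members are named where a count is given member by member. Names in counts follow the lists, which share some genes.

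Alternatives were a variance trend, only the 2 groups compared, quantile normalization again, common centring, 1 probe set per gene or their mean, array weights, replicate number as a block, a variance per group, a filter on low spread, and each array left out. A call rule of 2-fold or more was added after seeing the data. On simulated data with known changes the procedure was tested before use. The replicate numbers were checked as pairs: the correlation of deviations of same-numbered arrays was 0.128 to 0.186 for WT ANG II with WT baseline, where all 3 pairs were over 0.1 and the numbers were taken to pair the arrays, a hint from the data and not from the labels. It was -0.066 to 0.123 for KO baseline with WT ANG II and -0.097 to 0.100 for KO baseline with WT baseline, where 1 of 3 pairs was over 0.1 and they were taken as names.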

Additional observations from a re-analysis of the deposited data

How the results depend on the processing

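The direction of KO baseline against WT ANG II was kept by all 160 named genes called there, and 125 kept their call under every alternative. Among named genes the reversals were those of Fabp3 in that comparison (-0.20, adjusted p = 0.0315, with the mean of the probe sets of a gene) and of Fdft1 in WT ANG II minus WT baseline (-0.058, adjusted p = 0.651, same setting), whose probe sets disagree. Calls in KO baseline minus WT ANG II numbered 19990, and 11471 with quantile normalization again, 8616 with 1 probe set per gene and 9073 with the mean of the probe sets of a gene (fewer features tested), 872 at 2-fold or more, and 14414 to 20168 without one array. With the replicate number as a block there were 20195, against 2992 for KO baseline minus WT baseline; these groups share only numbers. For WT ANG II minus WT baseline, where the numbers were taken to pair the arrays on a hint from the data, the block gave 11043 calls. Of the named genes 4 gained the call (C1qb, Ms4a1, Ptger3 and Rgs5) and 2 lost it (Iigp1 and Apoa1). The same block was fitted over all 12 arrays. KO baseline minus WT baseline gave 2936 calls, and 1247 and 1469 by gene, 4849 with array weights, 4534 with a variance per group and 1107 to 3329 without one array. WT ANG II minus WT baseline gave 10876, and 5704 with quantile normalization, 4493 and 4821 by gene and 5773 to 12277 without one array.

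Quantile normalization gave 20 immune genes lower in KO baseline than in WT ANG II in place of 36, and 31 metabolic genes higher and 18 lower in place of 48 and 32. Of genes opposed against WT baseline it gave 0 injury genes in place of 2 and 4 immune genes in place of 20, and it gave 4 immune genes shared in place of 1, where the mean of the probe sets of a gene gave 5. Opposed injury genes numbered 5 with only the 2 groups compared, with array weights and with the filter on low spread, and 4 with a variance per group. Opposed metabolic genes numbered 1, and 2 with array weights, a variance per group or that filter, and 0 with the variance trend or the mean of probe sets. Without one array, opposed genes ranged over 0 to 3 (injury), 7 to 23 (immune) and 0 to 2 (metabolic), and shared genes over 6 to 10, 1 to 3 and 4 to 12. Direct calls without one array ranged over 79 to 88 higher and 18 to 23 lower injury genes, 67 to 74 and 27 to 38 immune genes, and 37 to 50 and 23 to 34 metabolic genes. The causes were not tested. The precision is limited by 3 arrays per group, and ratios keep no signal over background.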

Other observations

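Transporter genes of the proximal tubule showed some of the widest gaps outside the injury, immune and metabolic lists. Of 22 proximal tubule markers 8 were higher and 6 were lower in KO baseline than in WT ANG II. With 21.1% of all genes higher and 25.2% lower, the higher count exceeded its share and the lower count was near it. The proximal tubule markers named here all belong to the higher ones. Slc22a7, an organic anion transporter, had ratios of 0.992, 1.01 and 1.38 in KO baseline kidneys, 0.264, 0.260 and 0.201 in WT ANG II kidneys and 1.10, 0.913 and 0.621 in WT baseline kidneys (4.65-fold). Slc51a, a chain of the steroid and bile acid exporter, gave 1.06, 0.828 and 1.02 in KO baseline kidneys, 0.204, 0.310 and 0.170 in WT ANG II kidneys and 0.983, 0.802 and 1.22 in WT baseline kidneys (4.37-fold). For both, KO baseline and WT baseline overlapped and every WT ANG II array was lower. Slc7a13, an amino acid transporter, measured 2.23 ± 0.37, and its call ended with a variance trend (adjusted p = 0.0536). Car3, a carbonic anhydrase also abundant in fat and muscle, was called lower than WT baseline in both groups, with ratios of 0.750, 0.531 and 0.586 in KO baseline kidneys, 0.121, 0.212 and 0.163 in WT ANG II kidneys and 1.80, 2.04 and 1.63 in WT baseline kidneys, and 2 of its 4 probe sets were called in the direct comparison. With a variance trend its calls were lost between KO baseline and WT ANG II (adjusted p = 0.158) and between KO baseline and WT baseline (adjusted p = 0.421), and with the mean of its probe sets the direct difference was 0.67, against 1.93.

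Vascular and glomerular genes were higher in KO baseline more often than lower, where 21.1% of all genes were higher and 25.2% were lower. Of 14 endothelial markers 9 were higher and 0 were lower in KO baseline than in WT ANG II, led by Vwf, the von Willebrand factor, at 1.43 ± 0.19. Of 12 genes of vascular smooth muscle and mesangium 9 were higher and 0 lower, led by Tagln, an actin-binding protein, with ratios of 2.83, 2.45 and 1.34 in KO baseline kidneys, 0.644, 1.01 and 0.573 in WT ANG II kidneys and 0.876, 0.988 and 0.732 in WT baseline kidneys. Of 9 podocyte markers 5 were higher and 1 was lower. In the distal nephron, 4 of 10 principal cell markers were higher and 1 was lower in KO baseline than in WT ANG II. Their mean log2 ratio was 0.18, 0.27 and 0.22 in KO baseline arrays and -0.21, -0.09 and -0.02 in WT ANG II arrays. The lower marker was Scnn1a, a subunit of the epithelial sodium channel, with 0.920, 0.898 and 1.01 in KO baseline kidneys, 1.63, 1.41 and 1.59 in WT ANG II kidneys and 0.975, 0.997 and 0.927 in WT baseline kidneys. Slc12a3, the thiazide-sensitive cotransporter, measured -0.55 ± 0.12 and Slc26a4, the anion exchanger pendrin, -0.59 ± 0.14.

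Of 10 renin-angiotensin components 4 were higher and 2 were lower in KO baseline than in WT ANG II, where 21.1% of all genes were higher and 25.2% were lower. Ace, which makes angiotensin II, had ratios of 0.975, 0.999 and 1.07 in KO baseline kidneys, 0.598, 0.663 and 0.620 in WT ANG II kidneys and 1.07, 0.998 and 1.00 in WT baseline kidneys. Agt, the precursor of the peptide, gave 0.993, 0.973 and 0.787 in KO baseline kidneys, 1.37, 1.43 and 1.45 in WT ANG II kidneys and 1.09, 1.07 and 0.725 in WT baseline kidneys. Clock genes gave 2 higher and 2 lower of 17, both below the shares of all genes. Among them were Per2 at 1.02 ± 0.27 and Arntl, the activator BMAL1, at -0.62 ± 0.12. Quantile normalization ended the Per2 call (adjusted p = 0.0644). The sources used here give no time of day for collection. Alas2, which starts heme synthesis in red cell precursors, was raised over WT baseline in both groups, by 0.69 in KO baseline and 1.38 in WT ANG II. The KO baseline call was lost without KO baseline replicate 1 or 2 or WT baseline replicate 2 or 3 (adjusted p up to 0.1).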
